A study of Wolfiporia cocos with 12 samples.

Results

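The brown-rot basidiomycete Wolfiporia cocos strain MD-104 has 12746 gene models in the deposited table, of which 3 labelled as small-molecule enzymes are described here. They are 104457, labelled dihydrodipicolinate synthetase, 141329, labelled dienelactone hydrolase, and 134844, labelled haloacid dehydrogenase/epoxide hydrolase. The 3 were selected on their measured RPKM, the reads per kilobase and per 1e6 reads of a library, because the level on pine differed from that on aspen or on Avicel. Both of those contrasts therefore chose the models and are given for them as a description, with no test. The fungus was grown in shaken 250 ml cultures for 5 days, with 3 cultures on each of 4 carbon sources. The defined media carried glucose or the microcrystalline cellulose Avicel. Milled aspen (Populus grandidentata) and milled lodgepole pine (Pinus contorta) were each the sole carbon source, at 0.5% w/v, in basal salts. All cultures were of a single strain, and no gene was altered.

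The 12 libraries held 9.8 to 22.4 reads in units of 1e6, as the spacing of low RPKM values showed. The lowest depths were those of Avicel replicate 3 (9.8), pine replicate 2 (11.2) and aspen replicate 3 (11.6). In these 3 libraries 65 to 77 low values lay within 1% of 1 or 2 reads and 4 to 9 within 1% of 0.5 or 1.5 reads, so double these depths would leave few odd read numbers. Glucose and Avicel libraries were run on lane 1 and the wood libraries on lane 2, so lane and wood against defined medium cannot be told apart. Avicel replicate 3 stood farthest from the other libraries on the second principal component, at -41.13. RPKM is a share of each library, so a change in the RNA of other genes and a change in the RNA of a model itself cannot be told apart.

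The labels name enzyme families that act on small molecules. Dihydrodipicolinate synthetase is the aldolase that joins pyruvate to aspartate semialdehyde in lysine synthesis of bacteria and plants. Fungi make lysine by another route, through aminoadipate, and in the moulds Aspergillus niger and Trichoderma reesei a protein of this aldolase family splits the keto-deoxy acid formed from galacturonate, the backbone sugar of pectin. Dienelactone hydrolase, of the alpha/beta hydrolase fold, opens the lactone ring formed during breakdown of chlorinated catechols in bacteria. The haloacid dehalogenase superfamily holds dehalogenases and many phosphatases. None of the 3 labels settles the substrate of the W. cocos protein.

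Model 104457 lies on scaffold 7 at 2298513 to 2299948 on the plus strand. Its label rests on a single match to a protein-domain family over residues 29 to 91. Model 141329 lies on scaffold 27 at 218979 to 220191, also on the plus strand, with a match to the DLH domain of the Pfam collection from residue 26 to 248. Model 134844 lies on scaffold 1 at 213356 to 215096 on the minus strand. Its 4 motif matches, between residues 13 and 214, belong to the haloacid dehalogenase fingerprint. It is thus not 1 of the 6 models labelled epoxide hydrolase-like, whose fingerprint is a different one, and is called here by its haloacid dehydrogenase/epoxide hydrolase label. Coordinates are those of the deposited table, whose genome build the sources used here do not give. None of the 3 models is among the 704 with a protein score from mass spectrometry or the 1041 with a signal peptide probability.

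**Figure D1:**
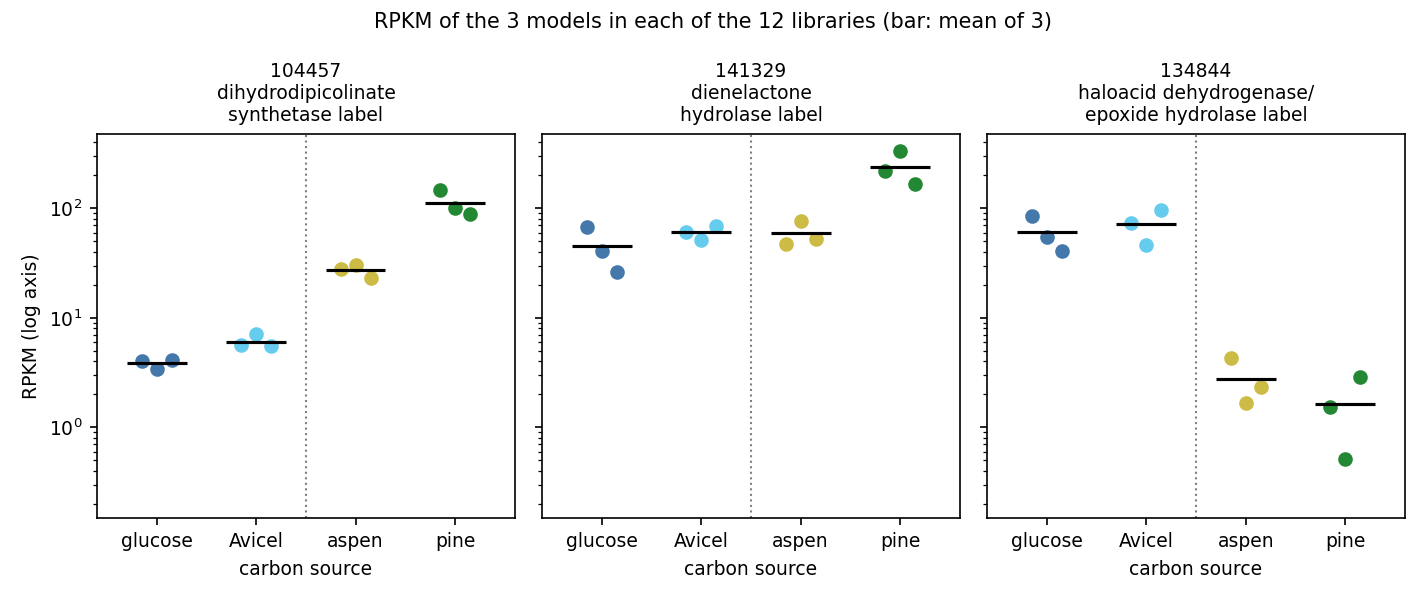
RPKM (log axis) of the 3 models in each of the 12 libraries, with 3 points per carbon source and a bar at their mean; the dotted line divides lane 1 (left) from lane 2 (right). Model 104457 climbs from 3.45 to 4.16 on glucose to 88.8 to 147 on pine, 141329 stands apart on pine at 166 to 330, and 134844 lies at 0.513 to 4.26 in the 6 wood libraries.

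Transcript 104457, of the aldolase family, was scarce on both defined media, intermediate on aspen and abundant on pine. The glucose cultures gave 4.05, 3.45 and 4.16 RPKM, and the Avicel cultures 5.63, 7.08 and 5.53. The aspen cultures gave 28.1, 30.6 and 23.3 RPKM. The pine cultures gave 147, 101 and 88.8 RPKM. No group overlapped another, and the order was glucose, Avicel, aspen, pine. In rank among all models of a library, the transcript stood at percentile 33 to 35.5 on glucose, 40.1 to 42.8 on Avicel, 63.5 to 71.3 on aspen and 88.5 to 92.9 on pine.

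Model 104457 rose on both woods in comparisons that did not choose it. On aspen it went from 3.89 ± 0.384 RPKM (SD, n = 3) on glucose to 27.3 ± 3.7, a log2 change of 2.53 (SE 0.19, limma adjusted p = 4.45e-06). On pine the level was 112 ± 30.7 RPKM, a log2 change of 4.50 against glucose (SE 0.19, limma adjusted p = 3.97e-08). The pine, aspen and Avicel libraries also entered the choice, so the p-values here are no independent support. Each comparison of a wood with glucose or Avicel also sets lane 2 against lane 1. Against Avicel, at 6.08 ± 0.868 RPKM, the aspen level was higher by 2.00 on the log2 scale (SE 0.19, limma adjusted p = 7.77e-05). The 2 lowest groups, glucose and Avicel, are neighbours in the order that the test did not separate: the log2 change was 0.53 (SE 0.19, 95% interval 0.12 to 0.94) with a limma adjusted p of 0.125. As a description of the choice, pine exceeded aspen by 1.97 and Avicel by 3.97 on the log2 scale. The authors' deposited table gives ratios to glucose of 1.56 for Avicel, 7 for aspen and 28.3 for pine, with p-values of 0.0446, 1.31e-05 and 5.99e-06.

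Transcript 141329, of the dienelactone hydrolase family, was at a middling level on glucose, Avicel and aspen and high on pine. The glucose cultures gave 67.3, 41 and 26.3 RPKM, the Avicel cultures 60.4, 51.4 and 69.4, and the aspen cultures 47.6, 77.1 and 52.4. These 9 values overlapped between all 3 groups. The pine cultures gave 217, 330 and 166 RPKM, each above every library of the other carbon sources. Pine replicate 2 was the highest here, whereas pine replicate 1 was the highest for 104457. Its percentile among all models was 66.2 to 87 in the 9 other libraries and 94 to 97.3 on pine.

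Model 141329 rose on pine against glucose, from 44.9 ± 20.7 to 238 ± 83.9 RPKM, which is a log2 change of 2.42 (SE 0.33, limma adjusted p = 0.000252). This comparison sets lane 2 against lane 1, and the pine libraries also entered the choice, so its p-value is no independent support. The other contrasts that did not choose it gave no call. Avicel stood at 60.4 ± 8.97 RPKM (log2 change against glucose 0.51, SE 0.33, limma adjusted p = 0.353) and aspen at 59 ± 15.8 (0.46, SE 0.33, adjusted p = 0.328). Aspen and Avicel differed by -0.05 on the log2 scale, with a 95% interval of -0.77 to 0.66 (limma adjusted p = 0.928), so differences of up to about 0.77 in size lie within the error. The order was thus glucose, aspen, Avicel, pine, and limma separated neither glucose from aspen nor aspen from Avicel. As a description of the choice, pine exceeded aspen by 1.96 and Avicel by 1.91 on the log2 scale. The authors' deposited table gives ratios to glucose of 1.44, 1.38 and 5.47 for Avicel, aspen and pine, with p-values of 0.368, 0.376 and 0.00581.

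Transcript 134844, with the haloacid dehydrogenase/epoxide hydrolase label, ran the other way and was low on wood. The glucose cultures gave 85.2, 54.9 and 40.5 RPKM, and the Avicel cultures 73.9, 46.6 and 96.8, which overlap. The aspen cultures gave 4.26, 1.67 and 2.36 RPKM, and the pine cultures 1.53, 0.513 and 2.89, which also overlap. The highest wood library lay below the lowest library on a defined medium, 4.26 against 40.5 RPKM. The lowest value, in pine replicate 2, rests on at most about 10 reads if the model has no introns, and fewer if it has, so the level there is known only roughly. Its percentile fell from 75.3 to 89.5 on glucose and Avicel to 20.7 to 36.7 on the woods.

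Model 134844 fell on both woods against glucose. The mean was 60.2 ± 22.8 RPKM on glucose and 2.76 ± 1.34 on aspen, a log2 change of -4.02 (SE 0.39, limma adjusted p = 2.97e-05). On pine it was 1.64 ± 1.19 RPKM, a log2 change of -4.57 (SE 0.39, limma adjusted p = 9.44e-06). Against Avicel, at 72.4 ± 25.1 RPKM, aspen was lower by a log2 change of -4.28 (SE 0.39, limma adjusted p = 6.93e-05). These 3 comparisons set lane 2 against lane 1. Their pine, aspen and Avicel libraries also entered the choice, so the p-values are no independent support. Within lane 1, Avicel and glucose differed by 0.27 (95% interval -0.60 to 1.13, limma adjusted p = 0.701). Within lane 2, pine and aspen, a contrast of the choice, differed by -0.56. The other contrast of the choice, pine against Avicel, gave -4.84. In the authors' deposited table the ratio to glucose is 1.21 for Avicel, 0.0446 for aspen and 0.0229 for pine, with p-values of 0.662, 0.000272 and 0.00128.

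Across the 4 contrasts that did not choose them, the 3 models compare with the whole table as follows. A call here means a limma adjusted p under 0.05 together with a fold of at least 2, over 10184 models tested. Pine against glucose called all 3 models, 2 higher and 1 lower, where 11.8% of tested models were called (5.61% higher, 6.2% lower). Aspen against glucose called 2, with 104457 higher and 134844 lower, against 11.8% of all (5.24% higher, 6.56% lower). Aspen against Avicel called the same 2 in those directions, against a background of 7.23%. Avicel against glucose called none of the 3, against a background of 1.67% called, and 1 of the 3 had an unadjusted p under 0.05. These contrasts share libraries with those that chose the models, and with each other, so the counts are no independent support. The median log2 change over all tested models was -0.18 for Avicel, -0.12 for aspen and -0.14 for pine against glucose, a shift that is small beside the called changes.

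**Figure D2:**
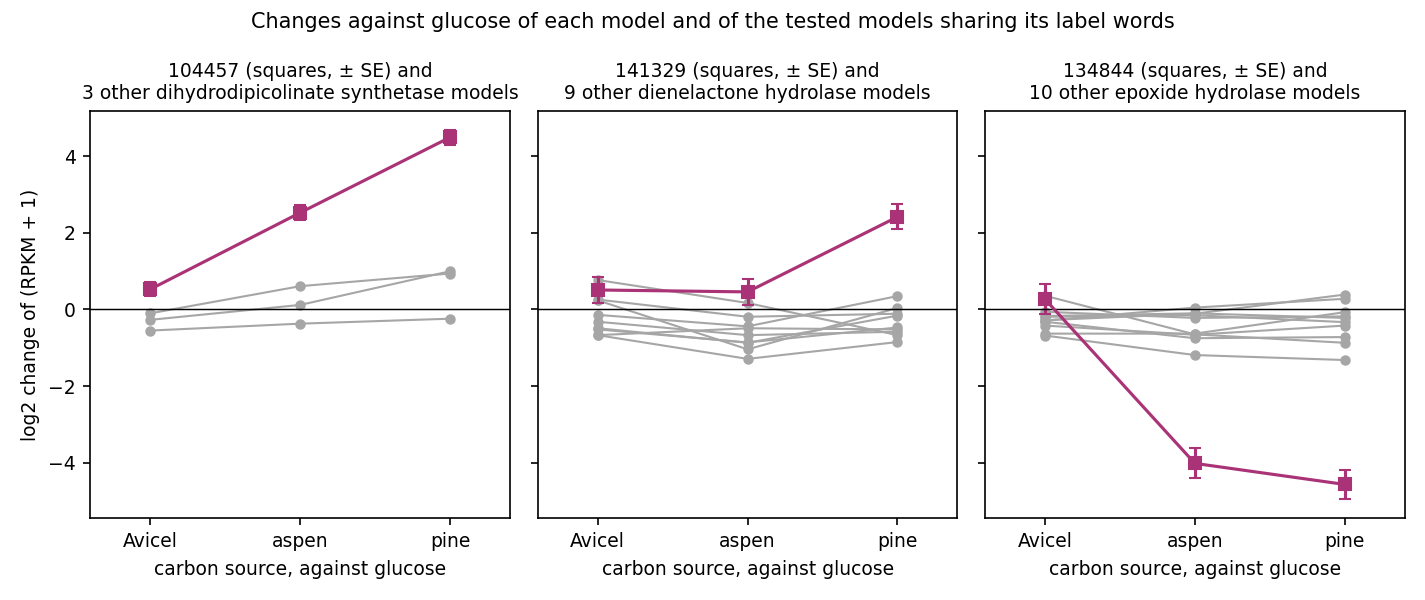
Log2 change of (RPKM + 1) against glucose on Avicel, aspen and pine for each of the 3 models (squares, ± SE) and for the other tested models that share its label words (grey circles). The squares reach 4.50, 2.42 and -4.57 on pine, while the grey models lie between -1.32 and 1.00 there. The 3 models were chosen on their pine level and the grey ones were not.

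On pine, the other models with the same labels lay closer to their glucose level than 104457, 141329 and 134844 did. The latter were chosen on their pine level and the others were not. This difference thus follows in part from the choice and is given as a description. Of all tested models, 1.67%, 11.8% and 11.8% were called against glucose on Avicel, aspen and pine. Of 3 other dihydrodipicolinate synthetase models, limma called none there, and 1, 1 and 2 had an unadjusted p under 0.05. Their median log2 change on pine was 0.94, beside -0.14 over all tested models. Model 120133 stood at 10.7 ± 1.07 RPKM on glucose and 21.4 ± 2.94 on pine, and 17565 at 4.81 ± 0.783 and 10.8 ± 2.96, with log2 changes of 0.94 and 1.00 that sat just under the fold threshold. Both passed it with median centring or quantile normalization of the libraries, 120133 also without pine replicate 3, and 17565 also with a pseudocount of 0.1 and without glucose replicate 1, glucose replicate 3 or pine replicate 2. Against Avicel both rose on pine, by 1.04 (SE 0.15, limma adjusted p = 0.000873) and 1.27 (SE 0.20, limma adjusted p = 0.00117), where 9.02% of all tested models were called. The call on 120133 was lost with either of those scalings, and without Avicel replicate 3 or pine replicate 1, as its log2 change slipped under the fold threshold (lowest value 0.83, with a pseudocount of 5). That on 17565 was lost with a pseudocount of 5. The 2 models overlap by 193 bp on scaffold 5, on the same strand, so the split of reads between them is unknown and both levels are uncertain. The remaining model, 130726, stood at 5.56 ± 0.953 RPKM on glucose and 4.53 ± 0.553 on pine.

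Dienelactone hydrolase is the larger family, with 10 models beside 141329, of which 9 passed the filter on low values. The untested model, 154491, had group means of 0.44 to 0.881 RPKM. None of the 9 was called on pine against glucose by limma, beside 11.8% of all tested models. An unadjusted p under 0.05 was met by 4 of the 9. The log2 changes of the 9 ran from -0.85 to 0.35 with a median of -0.47. The lowest of these, 86675, was called lower without glucose replicate 3 or pine replicate 3. On aspen 2 of the 9 were called lower, beside 6.56% of all tested models. These were 86675, from 327 ± 62.7 to 133 ± 18.8 RPKM, a log2 change of -1.29 (SE 0.20, limma adjusted p = 0.000716), and 139018, from 51.3 ± 18.3 to 23.3 ± 2.31 (-1.04, SE 0.28, adjusted p = 0.0177). The call on 139018, which was named after its values were seen, was lost with median centring, quantile normalization or a pseudocount of 5, and without glucose replicate 1 or 2 or aspen replicate 3 (highest adjusted p = 0.0752). The family's median on aspen was -0.67, beside -0.12 over all tested models. On Avicel none was called, beside 1.67% of all tested models, and 3 of the 9 had an unadjusted p under 0.05.

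Between the woods, limma called none of the other dienelactone hydrolase models, where 0.157% of all tested models were called. An unadjusted p under 0.05, whose share over all models is not given, was met by 5 of these models. With only those 2 groups fitted, 139018 was called higher on pine. Their log2 differences, pine minus aspen, ran from -0.84 to 1.08, beside the 1.96 that chose 141329. Pine against Avicel called 116341 lower (25 ± 4.07 against 71.9 ± 24.8 RPKM, log2 change -1.44, SE 0.39, limma adjusted p = 0.0234), and aspen against Avicel 139018 lower (-1.29, SE 0.28, limma adjusted p = 0.00992). Against Avicel, 9.02% of all tested models were called on pine and 7.23% on aspen. The call on 116341, also named after its values were seen, was lost with no filter on low values and without Avicel replicate 3, pine replicate 1 or pine replicate 3 (highest adjusted p = 0.0913). In level, 5 of the other models exceeded 141329 on glucose by a wide margin: 139020, 139015, 86675, 139014 and 135207 stood at 210 to 327 RPKM there. On pine the same 5 stood at 149 to 302 RPKM, beside 238 for 141329. Of the family, 139020 and 116341 have a protein score (emPAI, which grows with the number of peptides seen). Model 139020 scores 0.318 on aspen, 0.362 on pine and 0 on the other media in the authors' deposited table, and 116341 scores 0.573 on glucose and 0 elsewhere. Each is 1 value per carbon source.

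Of the 10 other models with epoxide hydrolase in the label, 4 carry the haloacid dehydrogenase/epoxide hydrolase label of 134844 and 6 the epoxide hydrolase-like label. Among the 10, 162085, with the same label as 134844 and named after its values were seen, fell on both woods. It went from 14.5 ± 1.81 RPKM on glucose to 5.85 ± 1.44 on aspen and 5.28 ± 1.17 on pine, log2 changes of -1.19 (SE 0.19, limma adjusted p = 0.000741) and -1.32 (SE 0.19, limma adjusted p = 0.000348). With a pseudocount of 5 both slipped under the fold threshold. The other 9 were not called against glucose on either wood, with medians over the 10 of -0.42 on aspen and -0.28 on pine. Of all tested models, 6.56% were called lower on aspen and 6.2% on pine, so 1 of 10 is near that share. Against Avicel, 9.02% of all tested models were called on pine and 7.23% on aspen. Model 140906, labelled epoxide hydrolase-like, was the most abundant of the 10 and fell on pine against Avicel, from 383 ± 81 to 161 ± 18 RPKM, which is a log2 change of -1.23 (SE 0.22, limma adjusted p = 0.00315). On aspen against Avicel it fell by 1.00 on the log2 scale (SE 0.22, limma adjusted p = 0.0111), a call lost with quantile normalization or a pseudocount of 5 and without Avicel replicate 2 or 3 or aspen replicate 1. On pine against glucose its log2 change of -0.87 was not called, but was without glucose replicate 1. Models 137580 and 136817 stood at 198 ± 8.03 and 48.2 ± 8.16 RPKM on glucose and at 157 ± 14.5 and 63 ± 1.5 on pine, with no call against glucose.

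Enzymes of sugar acid breakdown, the wider setting of the aldolase family in moulds, were followed through a list of 16 models taken by label words. It also holds 6-phosphogluconate enzymes, which work in other routes. On pine against glucose 3 rose, 2 fell and 11 were not called, on aspen 1 rose and 2 fell, and on Avicel 1 rose, where 11.8%, 11.8% and 1.67% of all tested models were called. The list's median log2 change was 0.17 on pine and -0.26 on aspen, beside -0.14 and -0.12 over all tested models. Model 141280, of the mandelate racemase and muconate lactonizing enzyme family, to which fungal galactonate dehydratases belong, showed the same order of groups as 104457. Its level was 10.4 ± 0.375 RPKM on glucose, 24.9 ± 2.91 on Avicel, 51.6 ± 11.7 on aspen and 140 ± 22.6 on pine. The log2 changes against glucose were 1.18 on Avicel (SE 0.17, limma adjusted p = 0.00519), 2.19 on aspen (SE 0.17, adjusted p = 7.47e-06) and 3.62 on pine (SE 0.17, adjusted p = 1.16e-07). With a pseudocount of 5 the Avicel change slipped under the fold threshold, to 0.96. Model 141280 was also the 1 member of the list called on pine against aspen, at 1.44 (SE 0.17, limma adjusted p = 0.00817), where 0.157% of all tested models were called. That call was lost when only those 2 groups were fitted (adjusted p = 0.082).

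The second model of that enzyme family, 106973, rose on pine to 30.1 ± 7.01 RPKM from 10.3 ± 2.1 on glucose (log2 change 1.45, SE 0.20, limma adjusted p = 0.000252), and stood at 13.4 ± 2.11 on aspen. Its difference between pine and aspen was not called (limma adjusted p = 0.053), but was with median centring, quantile normalization or a filter at a group mean of 5, and without glucose replicate 3 or pine replicate 2. HpcH/HpaI aldolase 62570, of a different aldolase family, fell from 358 ± 110 RPKM on glucose to 51 ± 10.6 on aspen and 105 ± 14.7 on pine (log2 changes -2.76 and -1.72, SE 0.41 for both, limma adjusted p = 0.000487 and 0.00936).

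For lysine synthesis by the aminoadipate route, the label words found 2 saccharopine dehydrogenase models, which moved in opposite directions on both woods. Both were called on each wood against glucose, where 11.8% of all tested models were called. The domain match covers residues 3 to 55 in 150219, which has a signal peptide probability, and 413 to 880 in 139556. Whether either takes part in lysine synthesis was not tested. Model 150219 fell from 206 ± 23.5 RPKM on glucose to 50.4 ± 3.3 on aspen and 67 ± 16.8 on pine (it fell by 2.00 and by 1.63 on the log2 scale, SE 0.25, limma adjusted p = 0.000135 and 0.000571). Model 139556 rose from 6.21 ± 0.564 to 16.7 ± 2.83 on aspen and 18.8 ± 3.18 on pine (1.29 and 1.45, SE 0.16, limma adjusted p = 0.000145 and 6.19e-05), of which the aspen call was lost with a pseudocount of 5.

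Aromatic ring catabolism, the setting of dienelactone hydrolase in bacteria, gave 43 tested models, mostly flavin-dependent aromatic-ring hydroxylases. On pine against glucose 8 rose, 5 fell and 30 were not called, and on aspen 5 rose and 5 fell, against a background of 11.8% for both. The list's medians were -0.11 on pine and -0.16 on aspen, close to those over all tested models. Between pine and aspen limma called none of the list, where 0.157% of all tested models were called. An unadjusted p under 0.05, whose share over all models is not given, was met by 7 of the 43. Of the models called on pine against glucose, the widest changes were in hydroxylase 140507, which fell from 179 ± 12 RPKM on glucose to 18.7 ± 1.64 on aspen and 19 ± 5.61 on pine, and in 139466, which rose from 22.9 ± 1.32 to 130 ± 43.4 and 192 ± 105. A further one, 161094, fell from 42.8 ± 2.25 RPKM on glucose to 7.6 ± 3.31 on pine, a call lost without any 1 of 8 libraries, with no filter on low values, with median centring and with the replicate number as a block (highest adjusted p = 0.0997). Among 33 tested models labelled alpha/beta hydrolase, the fold of dienelactone hydrolase, 4 rose and 1 fell on either wood, near the background of 11.8%. None of the 33 passed on pine against aspen by limma, beside a background of 0.157%, and 2 of them had an unadjusted p under 0.05. Hydrolase 25168 rose from 63.3 ± 21.3 RPKM on glucose to 301 ± 13.8 on aspen and 306 ± 41.3 on pine, and 138679 fell from 30.2 ± 6.15 to 2.75 ± 0.515 and 2.43 ± 0.0896. On Avicel 138679 was already low, at 5.81 ± 2.44 RPKM, a called log2 change of -2.23 against glucose. Against Avicel its changes of -0.81 on aspen and -0.93 on pine were not called. The pine one was called with median centring, a pseudocount of 0.1, or without Avicel replicate 1 or 3.

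**Figure D3:**
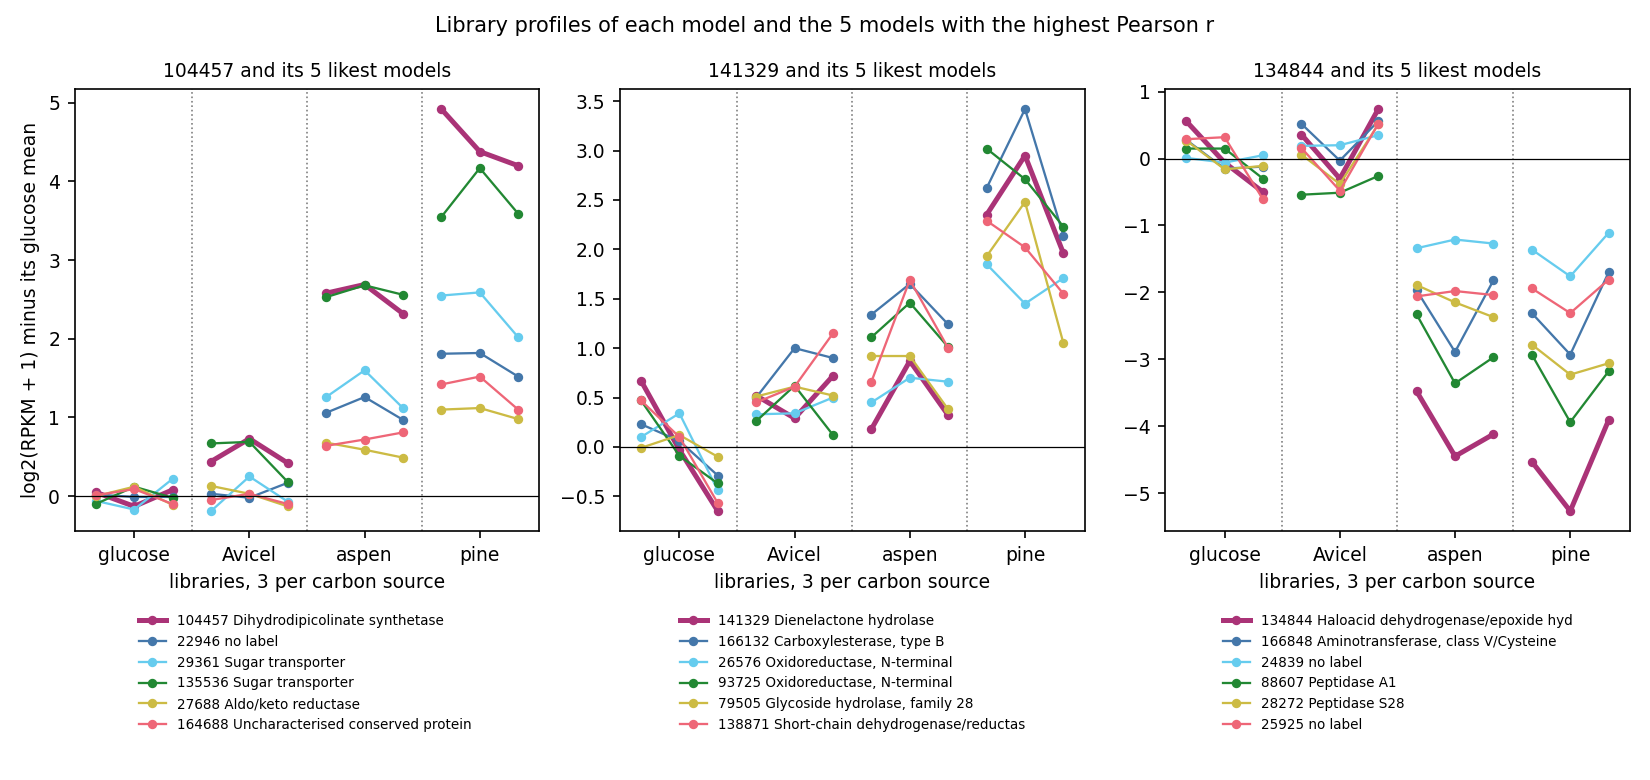
Log2(RPKM + 1) minus its mean on glucose, in the 12 libraries, for each of the 3 models (thick line) and the 5 tested models with the highest Pearson r to it. The likest models of 104457 and 134844 follow them at r of at least 0.974, those of 141329 at 0.890 to 0.914.

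The models most like each of the 3 over the 12 libraries were ranked by Pearson r on the log2(RPKM + 1) scale. The libraries fall into 4 groups, so r mostly reflects group levels and is given as a description. For 104457, 150 other tested models had an r above 0.9. The 5 highest were unlabelled 22946 (0.984), sugar transporters 29361 (0.984) and 135536 (0.977), aldo/keto reductase 27688 (0.976) and uncharacterised 164688 (0.974). Sugar transporter 135536 went from 26.7 ± 2.21 RPKM on glucose to 39 ± 7.46 on Avicel, 166 ± 9.47 on aspen and 385 ± 98.5 on pine. Aldo/keto reductase 27688, of a family of sugar and carbonyl reductases, went from 78.6 ± 6.36 RPKM on glucose to 165 ± 8.26 on pine.

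For 141329, 3 models had an r above 0.9. These were type B carboxylesterase 166132 (0.914) and the oxidoreductases 26576 (0.907) and 93725 (0.906), followed by glycoside hydrolase 79505 of the polygalacturonase family (0.899) and short-chain dehydrogenase 138871 (0.890). Carboxylesterase 166132 stood at 2.23 ± 0.581 RPKM on glucose, 7.54 ± 1.3 on aspen and 21.7 ± 10.4 on pine. Polygalacturonase-family 79505 stood at 4.04 ± 0.39, 7.53 ± 1.7 and 18.2 ± 8.8 RPKM.

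For 134844, 190 models had an r above 0.9, led by class V aminotransferase 166848 (0.982), unlabelled 24839 (0.980), peptidases 88607 of family A1 and 28272 of family S28 (both 0.979) and unlabelled 25925 (0.976). Aspartic peptidase 88607 fell from 5068 ± 855 RPKM on glucose to 707 ± 261 on aspen and 512 ± 169 on pine. Among the 3 models themselves, r was 0.826 between 104457 and 141329, -0.921 between 104457 and 134844, and -0.629 between 141329 and 134844.

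**Figure D4:**
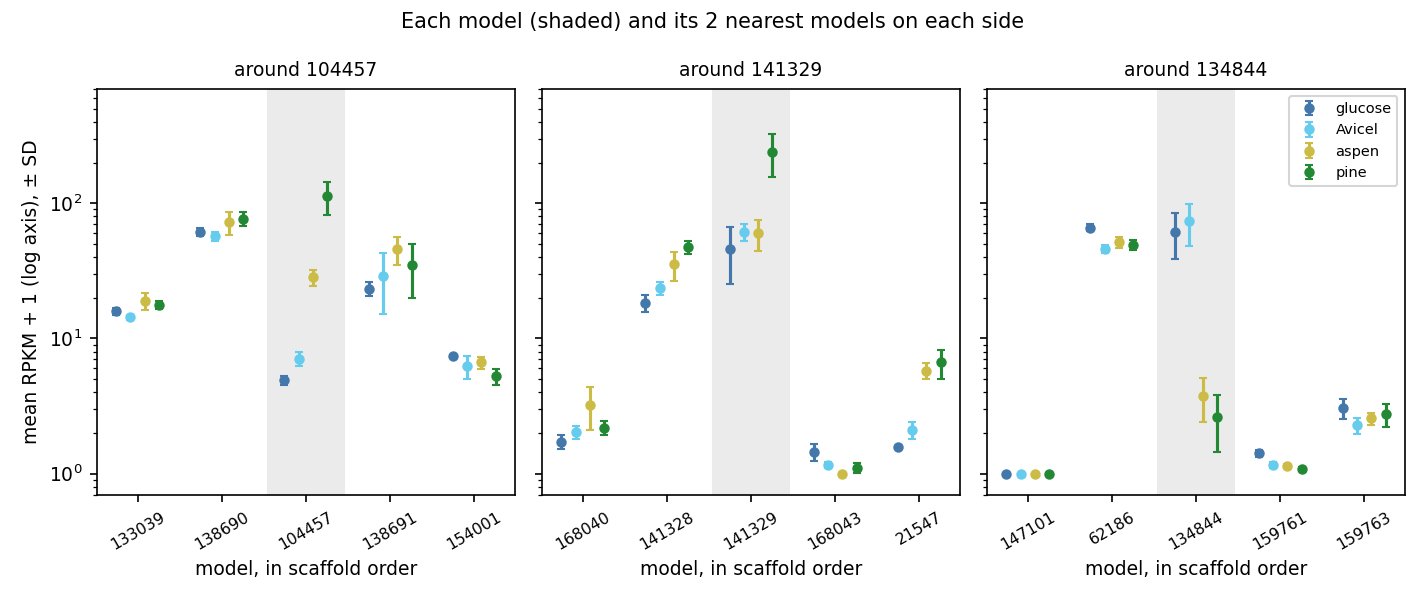
Mean RPKM + 1 (log axis, ± SD, n = 3) by carbon source for each of the 3 models (shaded) and its 2 nearest models on each side, in scaffold order. Around 104457 and 134844 no neighbour shows the spread between media seen in the shaded model, and no tested one was called. Models 147101 and 159761, near 134844, were too low to be tested.

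The 3 models lie on different scaffolds, and their neighbours were mostly flat. Next to 104457, WD40 repeat model 138690 ends 239 bp away and stood at 60.6 ± 4.4 RPKM on glucose and 75.5 ± 8.94 on pine. Unlabelled 138691, on the other side at 886 bp, stood at 22.4 ± 2.78 and 34 ± 15.1 RPKM. Its aspen level was 44.8 ± 10.8 RPKM, a log2 change of 0.94 against glucose that was not called. None of the 4 neighbours of 104457 was called by limma in any of the 6 comparisons, and 154001 had an adjusted p of 0.0418 on pine against glucose but a log2 change of -0.51.

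Beside 141329, unlabelled 141328 lies 1571 bp upstream on the opposite strand and rose on pine from 17.4 ± 2.64 RPKM on glucose to 46.3 ± 5.43 (log2 change 1.37, SE 0.18, limma adjusted p = 0.000218). Its aspen level was 34.3 ± 8.61 RPKM (log2 change 0.93, SE 0.18, adjusted p = 0.00308), just under the fold threshold, which it passed with median centring or quantile normalization and without glucose replicate 1 or aspen replicate 1. Unlabelled 21547, at 4518 bp on the other side, rose from 0.562 ± 0.0313 RPKM to 4.78 ± 0.775 on aspen and 5.66 ± 1.61 on pine (log2 changes 1.88 and 2.06, SE 0.20, limma adjusted p = 5.23e-05 and 2.61e-05), calls lost with a pseudocount of 5. The nearest model, 168043 at 126 bp, did not exceed a group mean of 0.444 RPKM. Farther upstream, at 3382 bp, 168040 stood at 0.724 ± 0.205 RPKM on glucose, 2.24 ± 1.15 on aspen and 1.18 ± 0.256 on pine. Its log2 change of 0.85 on aspen was not called, but was with a pseudocount of 0.1, with quantile normalization or without aspen replicate 2.

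Unlabelled 159761 overlaps 134844 by 34 bp on the opposite strand. The sources used here do not say whether counting used strand, so reads of the 2 cannot be told apart where they overlap. The group means of 159761 were 0.0823 to 0.41 RPKM. Oxidoreductase 62186, at 10274 bp, stood at 65.1 ± 3.68 RPKM on glucose and 48 ± 4.15 on pine, and ATPase-labelled 159763 at 2.06 ± 0.525 and 1.75 ± 0.541. Neither was called in any of the 6 comparisons, and the fourth neighbour, 147101, was listed at 0 in all libraries. A further haloacid dehydrogenase/epoxide hydrolase model, 147100, lies on the same scaffold at 198095 to 199627 and stood at 3.53 ± 0.501 RPKM on glucose and 4.6 ± 1.28 on pine.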

How the data were processed

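RPKM values of 12 libraries, 3 cultures per carbon source, were deposited by the authors as 1 table. No header names the unit, which was inferred from the values. Poly-A RNA from 1 µg of total RNA was used, per the labels' protocols, and sequenced as single reads of 100 bp, per the series' design text. The submitters' processing notes list CASAVA 1.8.2. No source used here names the aligner, the counting tool or the build. The authors also deposited group values, ratios and p-values per comparison (test not named), emPAI scores and peptide numbers, and a signal peptide probability as a fraction. Columns were matched to samples by index sequence and lane.

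limma 3.58.1 in R 4.3.3 was fitted to log2(RPKM + 1) over all 4 groups, with an intensity trend, on the 10184 models that reached a mean of 1 RPKM in any group (8 residual and 3.6 prior degrees of freedom). Benjamini-Hochberg adjustment ran over all tested models per comparison. A call needs an adjusted p under 0.05 and a fold of at least 2. Fold changes on this scale understate those of low models. The procedure was tested on simulated data.

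Depth was taken as the value at which RPKM between 0.05 and 0.8, times span, gave the most whole reads (1 to 3, within 1%). A count of 3 reads in 1 kb equals 0.134 to 0.305 RPKM, which covers counting error only. The members and the label-word lists were chosen with earlier results of these data known. Named genes were the members, up to 5 most abundant models per label family, up to 3 called models with the largest change against glucose per other list, the 5 likest models and the 2 nearest on each side, and exceptions are marked. No sequence is printed, since no reference was used here.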

Additional observations from a re-analysis of the deposited data

How the results depend on the processing

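For the 3 models, 12 results (4 contrasts each) were recomputed under 21 other settings, and 249 of 252 values kept their direction and their side of the threshold. The exceptions are the difference of 141329 between aspen and Avicel, -0.05, which ran from -0.26 to 0.08 as each library was left out and turned positive without Avicel replicate 3 (0.05), aspen replicate 1 (0.08) or aspen replicate 3 (0.01). With a pseudocount of 5 the log2 change of 104457 on pine against glucose was 3.69 and that of 134844 was -3.25, and with one of 0.1 that of 134844 was -5.32. The number of genes called without a fold threshold was 315 for Avicel, 2689 for aspen and 2736 for pine against glucose, 1661 for aspen and 1980 for pine against Avicel. At a fold of 4 these were 39, 364, 403, 208 and 281, and 2 for pine against aspen. Leaving out 1 library gave 93 to 190 for Avicel against glucose, where 170 were called, and 4 to 23 for pine against aspen, where 16 were called. The moves by over 1.5 times came without glucose replicate 1 (109), 2 (93) or 3 (107) in the former and without aspen replicate 1 (6), 2 (5) or 3 (4) in the latter. Pine against aspen also gave 5 with no filter and 9 with those 2 groups alone. Deviations of same-numbered libraries correlated at -0.42 to 0.44, with no comparison above 0.1 in every pair. The highest value was that of replicate 3 on pine and aspen. Whether same-numbered cultures were handled together was not tested. With the number as a replicate block, 175, 1230, 1230, 779, 21 and 944 genes were called in the 6 comparisons, and no call on the 3 models changed. At most about 10 reads lie behind 134844 in pine replicate 2.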
